A study of Mus musculus with 82 samples.

Results

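The comparison was 20 Gy against sham at day 4 (d4): the 4 arrays labelled with a dosage of 20Gy and the time point Day 4, from mice M021, M022, M023 and M024, against the 4 arrays labelled 0Gy at the same time point, from mice M001, M002, M004 and M005. These 8 were picked by their labels from the 82 arrays of the series, and no measured value was used to choose them. The study exposed the whole body of anesthetized male C57BL/6j mice, 8 weeks old on arrival and then acclimated, to X-rays of a linear accelerator, and it followed skin transcripts over 23 groups of dose and time point. Sham mice made the same trip to the irradiation facility without exposure, and 20 Gy was the lethal dose, whose mice were euthanized at d7. Each sample was a full piece of shaved dorsal skin with the blood it held, and the same mouse was biopsied again at later time points, so that the skin of both groups at d4 had been cut before, at 2 hours (h2). Biopsy RNA carried the red dye Cy5 and a universal mouse reference RNA the green dye Cy3 on every array, without dye swaps. All levels below are the log2 ratio of biopsy over reference on 1 probe, so that 0 is the level of the reference, and they compare samples, not genes with each other. Significantly differentially transcribed genes (SDTG) passed 2 thresholds in limma, an adjusted p under 0.05 (Benjamini-Hochberg) and a 2-fold change, and "rose" and "fell" are used only for these. A biopsy is a mixture of cells, and fewer cells of a type and less RNA per cell cannot be told apart in it.

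Ionizing radiation breaks DNA, and cells answer through the transcription factor p53, which turns on genes for cell cycle arrest, such as Cdkn1a, for apoptosis, such as Bax and Pmaip1, and for its own control, such as Mdm2. Skin is renewed from dividing keratinocytes of the basal epidermis and hair follicle, and it holds Langerhans cells and macrophages that present antigen on MHC class II molecules, whose genes are switched on by Ciita. Sebaceous glands and keratinocytes also make much of the sterol and lipid of the skin barrier.

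Promoter sequence is shown for 3 genes of these themes, Cdkn1a, Ccng1 and H2-Aa, that carried a match to the element of their regulator within the annotated window of 250 bases before to 50 bases after the start, from RefSeq on GRCm38.p6. Capitals mark the match, to the p53 response element with at most 1 mismatch among its 20 letters in Cdkn1a and Ccng1, and to the Y box CTGATTGG, read on both strands, in H2-Aa. The first 2 lie at chr17:29090868-29090978 on the plus strand and chr11:40755402-40755536 on the minus strand, and the H2-Aa stretch at chr17:34287824-34287963 on the minus strand, all printed 5′ to 3′ in the direction of transcription.
Cdkn1a promoter: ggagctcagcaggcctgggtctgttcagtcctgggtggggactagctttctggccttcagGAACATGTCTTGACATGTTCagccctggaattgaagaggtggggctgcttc
Ccng1 promoter: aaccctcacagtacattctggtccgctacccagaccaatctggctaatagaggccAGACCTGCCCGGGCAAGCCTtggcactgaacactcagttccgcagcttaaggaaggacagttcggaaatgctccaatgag
H2-Aa promoter: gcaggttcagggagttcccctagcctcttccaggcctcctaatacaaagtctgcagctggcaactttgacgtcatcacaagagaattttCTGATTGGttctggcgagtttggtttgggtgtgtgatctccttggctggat
The p53 element began 51 bases before the start of Cdkn1a, which rose, and 195 bases before that of Ccng1, whose probes went both ways. It was found in 29 of all 32851 promoter windows (0.0883%) and in 3 of the 34 windows of p53 targets, those of Cdkn1a, Ccng1 and Gtse1, the last not printed here. The Y box stood in 1346 windows (4.1%) and, of 3 MHC class II genes with a window, in H2-Aa alone. A match describes letters and is not a measured binding site.

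The arrays themselves differed between the groups before any gene was considered. The median Cy5 intensity was 29 to 31.5 on the 20 Gy arrays (mean 30.1 ± 1.03, SD, n = 4) and 54 to 85 on the sham arrays (65.8 ± 13.4, n = 4), with no overlap (two-sided exact permutation test, p = 0.0286, the smallest that 4 against 4 arrays can give, adjusted p = 0.0429 over 9 array measures). Between 42.6% and 47.2% of the probes lay well above background in Cy5 after 20 Gy, against 57.1% to 65.2% in sham, while the median Cy3 intensity of the reference overlapped, with 99 to 106 against 99 to 130 (exact permutation p = 0.171). The brighter reference probes did not overlap: the 90th percentile of Cy3 was 1140 to 1280 after 20 Gy and 1303 to 2952 in sham (exact permutation p = 0.0286, adjusted p = 0.0429). The added spike-in transcripts, which are not skin RNA, were dimmer too: against the 3 sham arrays of the same scanner, their Cy5 signal was lower by a log2 difference of -1.98 to -3.18 over 10 of them, and their Cy3 signal by -0.11 to -0.5. All 4 arrays of 20 Gy shared slide 8, which held no sham array, so slide and 20 Gy at d4 cannot be told apart. Sham mice M001, M004 and M005 were read on the same scanner from slides 1 and 2, and M002 on another scanner from slide 11. The array of M002 had r = 0.79 with the other sham arrays over 30293 tested probes, against 0.96 to 0.98 among these and among the 20 Gy arrays, and for gene lists whose count moved by over 1.5 times without it, the count against the 3 sham arrays of the same scanner is given. The 20 Gy arrays at h2 (median Cy5 29.5 to 33) and at d7 (22 to 26.5) were as dim, and so were the sham arrays of M001 and M005 at d7 (23 to 23.5). The other sham arrays of d7, of M002 and M003, were bright (76.5 and 98) and were read on scanner 2, which read no 20 Gy array. Values against the 4 sham arrays of d7 are given beside many results below; they replace the time-matched controls by a set split between scanners and serve as a description.

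**Figure D1:**
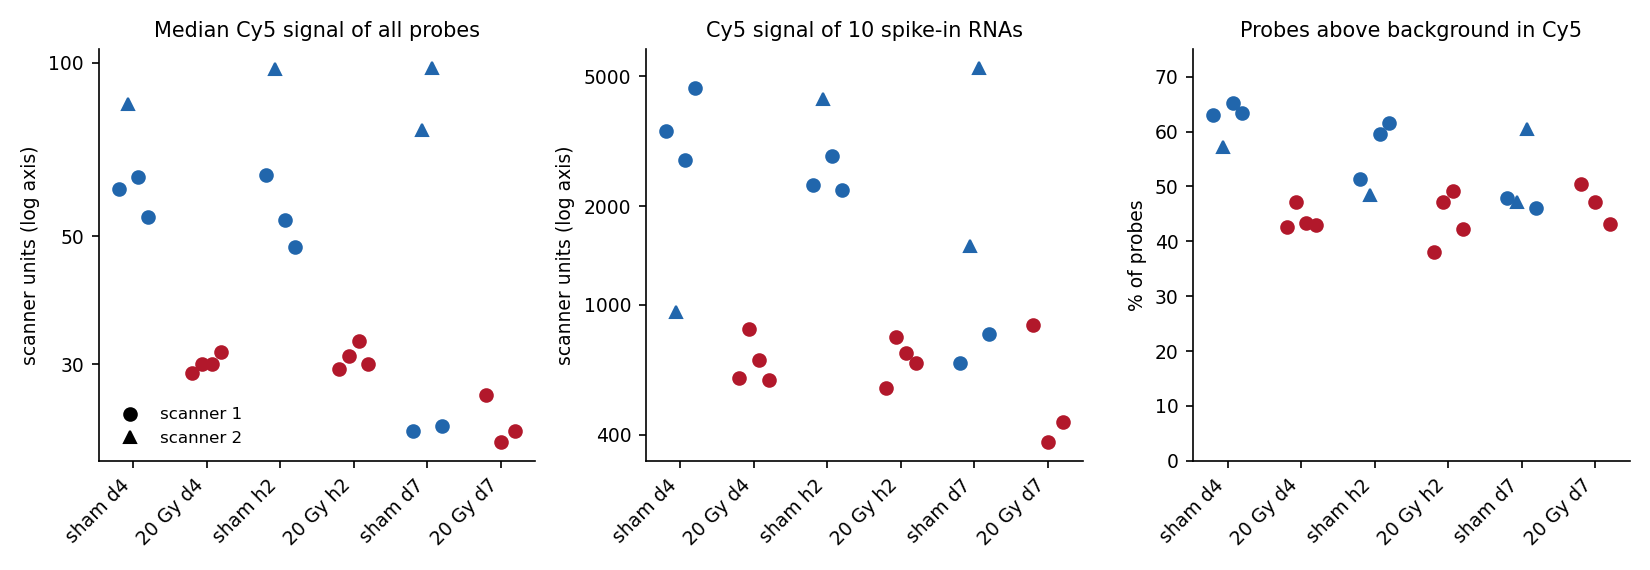
Signal of each array of the sham and 20 Gy groups at d4, h2 and d7. The panels show the median Cy5 intensity, the Cy5 intensity of the spike-in transcripts (both on log axes) and the percent of probes well above background in Cy5; each point is 1 array, blue for sham and red for 20 Gy, with circles for scanner 1 and triangles for scanner 2. The 20 Gy arrays at d4 lie between 29 and 31.5 in median Cy5, below all sham arrays of d4 (54 to 85), and 2 sham arrays of d7 (23 to 23.5) lie as low.

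The deposited normalized values followed the scanner values of the same arrays less closely for 20 Gy at d4 than for sham at d4. Over the tested probes, the deposited column of a sham array at d4 had r = 0.91 to 0.97 with the scanner values of its own array, but the 4 columns of 20 Gy at d4 had only r = 0.71 to 0.74. Each of these 4 columns was closer to the scanner values of the sham arrays of d4 (r = 0.8 to 0.88), and its own array ranked 51 to 57 among the scanner values of all 82 arrays. Of the sham columns of d4, 2 ranked their own array first and the others ranked it at 5 and 8. In the whole series 35 of 82 columns ranked their own array first, none of the 11 columns of 20 Gy among them, and some columns of other groups matched as poorly, such as sham mouse M001 at d7 (r = 0.67) and both 1 Gy arrays at d7 (0.68 and 0.73). The steps that made the deposited values are not given in the sources used here, and which of the sources holds the biopsies named by the labels was not tested. Every change below is from the scanner files unless the deposited values are named, and genes that moved the same way in both are set apart.

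The skin markers stood above the reference RNA in both groups. Mean log2 ratios in sham and after 20 Gy were 4.30 and 7.38 for the basal keratin Krt5, 6.00 and 6.64 for the suprabasal keratin Krt10, 6.92 and 8.56 for the cornified envelope protein Lor, 4.00 and 4.26 for type I collagen (Col1a1) and 4.32 and 5.45 for the dermal proteoglycan Dcn.

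Of 30293 probes, 1844 (6.09%) were SDTG higher and 1548 (5.11%) lower after 20 Gy, which is 54.4% higher among the calls. This split depended on the scaling. With plain median centring in place of loess, only 1.58% of the calls were higher, in the log ratio from Feature Extraction, the scanner software, 42.3%, and in the deposited values 26.8%. With 1 probe a gene, 952 of 15739 genes rose (6.05%) and 1129 fell (7.17%), and the median over all genes was -0.05. The 4 and 4 arrays did not overlap for 936 of the 952 and for 1065 of the 1129. A lack of overlap, given for some genes below, is thus common to nearly all calls. Of 9519 genes well above background on all 8 arrays, 755 rose (7.93%) and 870 fell (9.14%). Against the 3 sham arrays of the same scanner, 1085 genes were higher (6.89%) and 1237 lower (7.86%), and with the Feature Extraction log ratio 1827 (11.6%) and 3754 (23.9%). Against the sham arrays of d7, 581 genes were higher (3.69%) and 281 lower (1.79%), of which 387 and 167 were also called against sham of d4. In the deposited values, 165 genes were higher (1.05%) and 533 lower (3.39%), of which 22 and 136 were among those that rose or fell in the scanner values. In the Cy5 channel alone, quantile normalized without the reference, 477 genes were higher (3.03%) and 647 lower (4.11%), sharing 395 and 466.

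**Figure D2:**
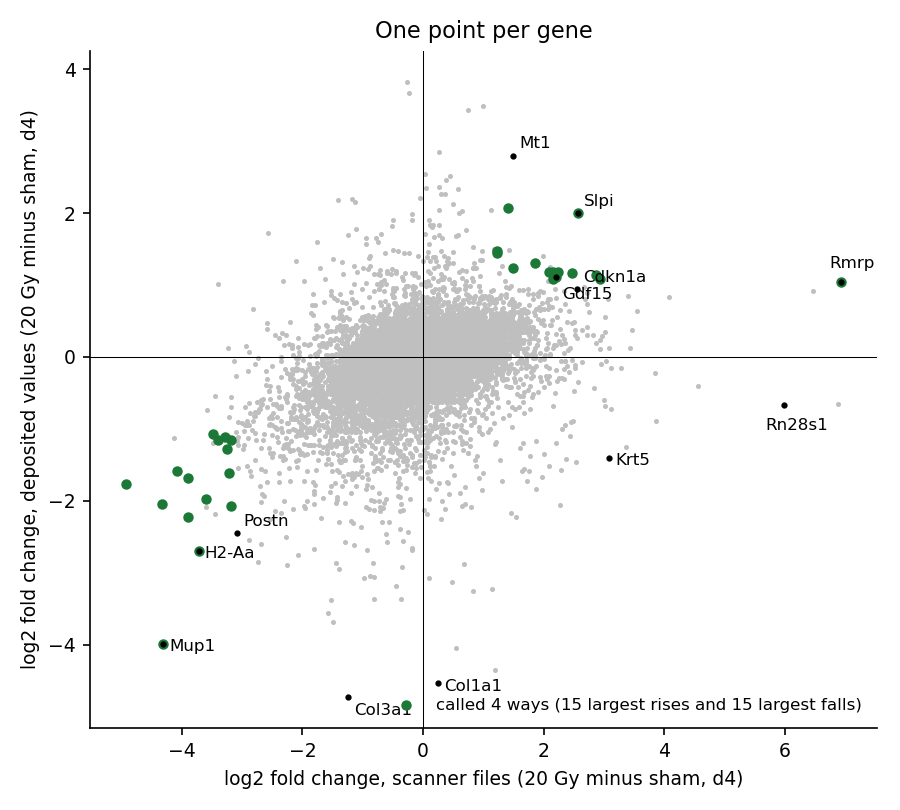
Log2 fold change of 20 Gy against sham at d4 for each of the 15739 genes, from the scanner files (horizontal) and from the deposited normalized values (vertical). Each point is a gene; green points are the 15 largest rises and the 15 largest falls called in the same direction against all sham arrays of d4, against the 3 of the same scanner, with the Feature Extraction log ratio and in the deposited values. Across probes r was 0.36, the cloud fills all 4 quadrants, and 16 genes were called higher and 79 lower in all 4 ways.

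Several genes that p53 is known to turn on were higher against both control sets, sham of d4 and sham of d7, among them Cdkn1a, Sesn2 and Gdf15. Of 32 tested targets 10 rose and 3 fell, where 6.05% of all genes rose and 7.17% fell, so the falls were near that share. Their median was 0.27 on the log2 scale against -0.05 over all genes. Against sham of d7, 6 were higher and none lower (3.69% and 1.79% over all genes), with a median of 0.06. Cdkn1a, the inhibitor of cyclin-dependent kinases, had log2 ratios of 1.03, 1.28, 1.36 and 0.13 in sham (M001, M004, M005 and M002, in this order below) and 3.37, 3.68, 3.61 and 3.32 after 20 Gy (M021 to M024). All 4 irradiated mice lay above every sham mouse, by 2.55 ± 0.43 (SE, limma adjusted p = 5.38e-06), and the difference was 2.67 against sham of d7, 2.36 in Cy5 alone and 0.94 in the deposited values, just under the fold threshold. The stress protein Sesn2 lay between -0.7 and -0.18 in sham and between 1.97 and 2.36 after 20 Gy, a rise of 2.72 ± 0.27 (adjusted p = 1.55e-11) that was 2.4 against sham of d7 but 0.3 in the deposited values.

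Gdf15, a secreted stress cytokine of the TGF-β family, had -1.87, -2.42, -2.0 and -1.55 in sham and 0.13, 0.38, 0.14 and 0.32 after 20 Gy, so that only the irradiated mice lay above the reference. It rose by 2.2 ± 0.31 (adjusted p = 1.62e-07), and by 1.02 against sham of d7, 1.4 in Cy5 alone and 1.11 in the deposited values, and it was an SDTG in each. The death receptor gene Tnfrsf10b rose by 1.67 ± 0.22 (adjusted p = 2.22e-08) on its main probe, while its other probes lay at 0.24 to 1.0. Phlda3, an inhibitor of Akt, rose by 1.62 ± 0.38 (adjusted p = 0.000851), with sham mouse M002 at 0.96 and the other sham mice at -0.62 to -0.46, and the mitotic spindle gene Psrc1 by 1.44 ± 0.34 (adjusted p = 0.000982). All 3 were over 2-fold higher against sham of d7 as well (1.1, 1.19 and 1.07), but with plain median centring Phlda3 and Psrc1 lay below sham (-0.59 and -0.53).

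The BH3-only protein gene Pmaip1, of apoptosis, lay at -2.09 to -1.17 in sham and -0.38 to -0.18 after 20 Gy and rose by 1.45 ± 0.3 (adjusted p = 0.000145), yet by only 0.34 against sham of d7. Bax, which opens the mitochondrial outer membrane, rose by 1.03 ± 0.23 (adjusted p = 0.000468), with 0.11 against sham of d7; its fold change dropped under 2 without sham mouse M001, M004 or M005 or without M021 (0.99, 1.0, 0.96 and 1.0). Dglucy rose by 1.11 ± 0.23 (adjusted p = 0.000187) and was at 0.98 without sham mouse M005. With plain median centring Pmaip1, Bax and Dglucy changed sign (-0.20, -0.73 and -0.53). Ckap2 passed the test, but its probe was not well above background on any 20 Gy array, so no fold is given. Mdm2, the ubiquitin ligase of p53, was at 0.22 ± 0.22 (adjusted p = 0.449) on the brighter probe and was called higher, at 1.29, on the other.

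The 3 targets that fell had conflicting evidence. Perp, an epidermal desmosome protein, fell by 1.01 ± 0.31 (adjusted p = 0.011) but overlapped, with sham mouse M002 at 5.11 and the irradiated mice at 5.37 to 5.67; without M001, M004, M005, M022 or M024 the change was under 2-fold (-0.81, -0.88, -0.86, -0.96 and -0.97). Sesn1 fell in the scanner values from 1.5 to 1.71 in sham to 0.13 to 0.36, by 1.33 ± 0.26 (adjusted p = 6.71e-05; other probes -0.8 and -0.62), whereas its deposited values went from 1.26 to 1.36 in sham to 2.24 to 2.63 after 20 Gy, a difference of 1.16 the other way. Ccng1 fell by 1.59 ± 0.47 (adjusted p = 0.00771) on the probe used and rose by 1.06 on its other probe. Of the remaining targets, Trp53inp1 was at 0.32 in the scanner values and was called higher, at 1.66, in the deposited ones, and Fas, Ddb2 and Xpc passed no threshold, with -0.85, -0.61 and -0.79.

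**Figure D3:**
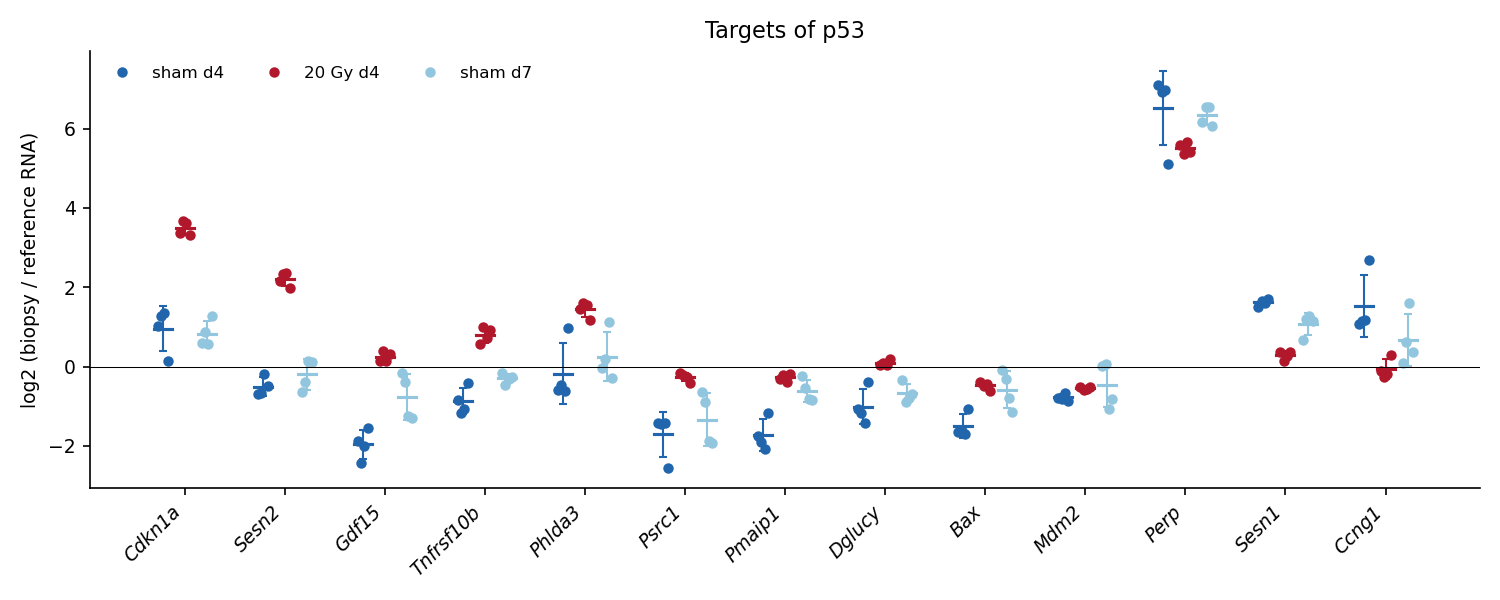
Log2 ratio of biopsy over reference on each array for p53 targets, in sham of d4, 20 Gy of d4 and sham of d7. Points are arrays, and bars give the mean and SD of a group. Cdkn1a lies at 3.32 to 3.68 on the 20 Gy arrays and at 0.13 to 1.36 in sham of d4, and Sesn2 and Gdf15 are likewise apart, while Pmaip1 and Bax of the 20 Gy arrays lie near sham of d7 (differences of 0.34 and 0.11).

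Under 6 settings alike, 6 genes rose and 4 fell (sham of d4, the 3 of the same scanner, sham of d7, the Feature Extraction log ratio, Cy5 alone and the deposited values). Plain median centring was not among the 6, and under it Pik3ip1, one of the rises, was at -0.01. These 10 of 15739 genes were chosen by their values. Beside Gdf15, the rises were those of Pik3ip1, Slpi, Jchain, Rmrp and Slc4a8. Pik3ip1, an inhibitor of PI3-kinase, went from 0.75, 1.11, 1.33 and 1.39 in sham to 2.79, 2.97, 3.05 and 3.18, a rise of 1.85 ± 0.34 (adjusted p = 2.63e-05) that was 2.48 against sham of d7 and 1.31 in the deposited values. Slpi, a secreted inhibitor of neutrophil elastase, went from -4.72 to -4.03 in sham to -2.18 to -1.71, by 2.56 ± 0.5 (adjusted p = 6.48e-05). It was 1.59 higher against sham of d7 and 2.0 in the deposited values. Jchain, which joins IgA and IgM in plasma cells, went from -3.73 to -2.81 to -0.57 to -0.19, by 2.94 ± 0.31 (adjusted p = 7.4e-11), and the bicarbonate transporter gene Slc4a8 from -0.81 to -0.4 to 0.7 to 1.03, by 1.49 ± 0.17 (adjusted p = 6.68e-10), with its other probes at -0.66 and 0.52. None of these rises showed overlap between the mice of the groups, which was true of 936 of all 952 genes that rose.

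A further 10 genes rose in the scanner values under 3 settings and in the deposited values, but not against sham of d7 or not in Cy5 alone. Among them were Krt8 (2.23 ± 0.39, adjusted p = 1.39e-05) and Krt18 (2.09 ± 0.49, adjusted p = 0.000826), the paired keratins of simple epithelia, which were at 1.03 and 0.52 against sham of d7, and Msln (2.15 ± 0.52, adjusted p = 0.00121), a surface protein of mesothelium. All 3 stayed below the reference RNA on every array of both groups. Il1rl1, the receptor of interleukin 33, rose by 2.87 ± 0.64 (adjusted p = 0.000513) but was at -0.01 against sham of d7, with 1.3, not called, on its other probe. Ddit4, an inhibitor of mTORC1, lay at -1.84, -1.75, -1.77 and -0.54 in sham and -0.27 to 0.23 after 20 Gy. It rose by 1.41 ± 0.47 (adjusted p = 0.0188), and by 2.07 in the deposited values. It missed the test without sham mouse M001, M004 or M005 or without M021 (1.28, 1.31, 1.31 and 1.3). Gadd45b, a stress gene of growth arrest, rose by 1.18 ± 0.31 (adjusted p = 0.00263) and by 1.5 in the deposited values, with 0.28 on its other probe. Hmga2, Pvr and Slc43a3 rose by 2.16 ± 0.65, 1.23 ± 0.29 and 1.23 ± 0.36, the last with overlap and at 0.96, under 2-fold, without sham mouse M001. The other probes of Hmga2 and Pvr were at 0.69 and 0.15 and were not called. With plain median centring Krt18, Ddit4, Gadd45b, Pvr and Slc43a3 changed sign (-0.12, -0.80, -0.76, -0.61 and -0.56).

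The largest rises in size were of RNAs that carry no poly(A) tail. Rmrp, the RNA of the endonuclease RNase MRP, had -3.1, -3.38, -3.27 and -0.92 in sham and 4.43, 4.1, 4.49 and 4.04 after 20 Gy, a rise of 6.93 ± 0.76 (adjusted p = 1.5e-10) that came to 3.7 against sham of d7 and 1.04 in the deposited values. Snord33, a small nucleolar RNA that guides methylation of ribosomal RNA, rose by 6.46 ± 0.69 (adjusted p = 7.18e-11), with 0.91 in the deposited values. The 28S ribosomal RNA itself (Rn28s1) rose by 5.98 ± 0.83 (adjusted p = 9.64e-08), with -0.67 in the deposited values. Lars2, the mitochondrial leucyl-tRNA synthetase, was the one protein gene of this size, at 6.87 ± 1.0 (adjusted p = 3.23e-07), with 2.8 against sham of d7 and -0.65 in the deposited values.

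Of 34 such RNAs, a list drawn up by symbol after their values were seen, 22 rose and none fell, with a median of 1.52. Over all genes 6.05% rose and 7.17% fell. Most of the 34, and most of the 22 that rose, were histone genes, among them H1f4 (4.07 ± 0.81). The small nucleolar RNAs Snora3 and Snord35b, also on the list, rose by 3.54 ± 0.28 and 3.46 ± 0.35. Sham mouse M002, on the other scanner, lay above the other sham mice for Rmrp, Snord33 and Rn28s1. Against sham of d7 8 of the 34 were higher (3.69% of all genes), and in the deposited values 2 (1.05% of all genes). At h2 27 were higher (5.8% of all genes rose there and 4.91% fell) and at d7 1 (1.26% of all rose and 0.953% fell). There 3 histone genes of the list were lower (H2bc12, H2bc14 and H2bc1, at -1.74, -1.75 and -1.85). These levels moved together with the slide, the Cy5 brightness and the source of the values, and their part in the result was not tested. The remaining large rises were H1f4, a histone gene of this list, and Grn, Pigt and Rgs3 (3.84 to 4.55). Grn, Pigt and Rgs3 were lower in the deposited values (-0.40, -0.89 and -0.22), and their other probes lay at -0.84, 0.61 and 0.06 to 0.79.

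Several genes of antigen presentation were lower. Of 19 tested markers of dendritic and Langerhans cells, 7 fell and none rose, with a median of -0.99, where 7.17% of all genes fell and 6.05% rose. In the deposited values 5 were lower and none higher (3.39% and 1.05% over all genes), with a median of -0.42. Against sham of d7 none passed in limma (0 of 19 also at an unadjusted p under 0.05), with a median of -0.38. H2-Aa, the α chain of the MHC class II molecule I-A, had 4.55, 4.96, 4.64 and 5.97 in sham and 1.26, 1.51, 1.25 and 1.23 after 20 Gy, and its raw Cy5 intensity was 1295 to 2876 against 64.5 to 79. The groups lay far apart, and the fall of 3.72 ± 1.1 (adjusted p = 0.00804) was -4.21 on the other probe and -2.7 in the deposited values. Against sham of the same time point H2-Aa was at -1.02 at h2 and, without a call, at -2.9 at d7. In sham of d7 the dim arrays of M001 and M005 were at 1.09 and 1.84, like the 20 Gy arrays, and the brighter arrays of M002 and M003 at 5.19 and 5.46, and against these 4 the difference was -2.08 (adjusted p = 0.255).

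H2-Ab1, the β chain, fell by 1.45 ± 0.49 (adjusted p = 0.0192) and by 2.87 in the deposited values, and its other probes lay at -4.09 and -2.08; with the Feature Extraction log ratio the chosen probe was 0.60 higher. H2-DMa, which helps load peptides, went from 1.71 to 2.16 in sham to -0.12 to 0.03, by 1.95 ± 0.46 (adjusted p = 0.00096). The invariant chain Cd74 (-1.15 ± 0.55, adjusted p = 0.1) and the chosen probe of H2-DMb1 (-1.16 ± 0.52, adjusted p = 0.0742) did not pass, although both genes were called lower in the deposited values, at -2.62 and -2.31, and the other probe of H2-DMb1 was called lower in the scanner values, at -1.13. Ciita, the switch of these genes, fell by 1.36 ± 0.45 (adjusted p = 0.0165) and missed the test without sham mouse M004 or M005 (-1.26 and -1.23). Cd207 (langerin), which defines Langerhans cells, went from 2.74, 2.8, 2.83 and 1.43 in sham to 0.08 to 0.53, by 2.06 ± 0.71 (adjusted p = 0.0216), and by 1.29 in the deposited values. It missed the test without sham mouse M001, M004 or M005 or without M021 (-1.97, -1.95, -1.94 and -1.96). The activation marker Cd83 fell by 2.36. The probes of Flt3, Ccr7 and Zbtb46, genes of conventional dendritic cells, were well above background on no 20 Gy array, so no fold is given for them.

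Of 21 macrophage and monocyte markers, 8 fell and none rose, with a median of -1.1. Without sham mouse M002 only 3 were called lower (median -1.07). Over all genes 7.17% fell, 7.86% were lower without sham mouse M002 and 3.39% in the deposited values. The complement genes C1qa and C1qb fell by 2.41 and 2.6 ± 0.91 (adjusted p = 0.0245 for C1qb), Lyz1 by 1.83 ± 0.64 (adjusted p = 0.0242), the folate receptor gene Folr2 by 2.83 and the receptor gene Csf1r by 1.13. With the Feature Extraction log ratio C1qa and Folr2 lay on the other side of 0 (0.32 and 0.06). C1qb missed the test without sham mouse M002 or M004 or without M023 (-2.38, -2.52 and -2.48), and Lyz1 without M002 or M004 or without M021 or M023 (-1.59 to -1.73). Against sham of d7 none of the 21 passed in limma (2 of 21 at an unadjusted p under 0.05, both lower), with a median of -0.64; in the deposited values 4 were lower, among them Folr2 and Lyz1 (-1.02 and -1.03).

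**Figure D4:**
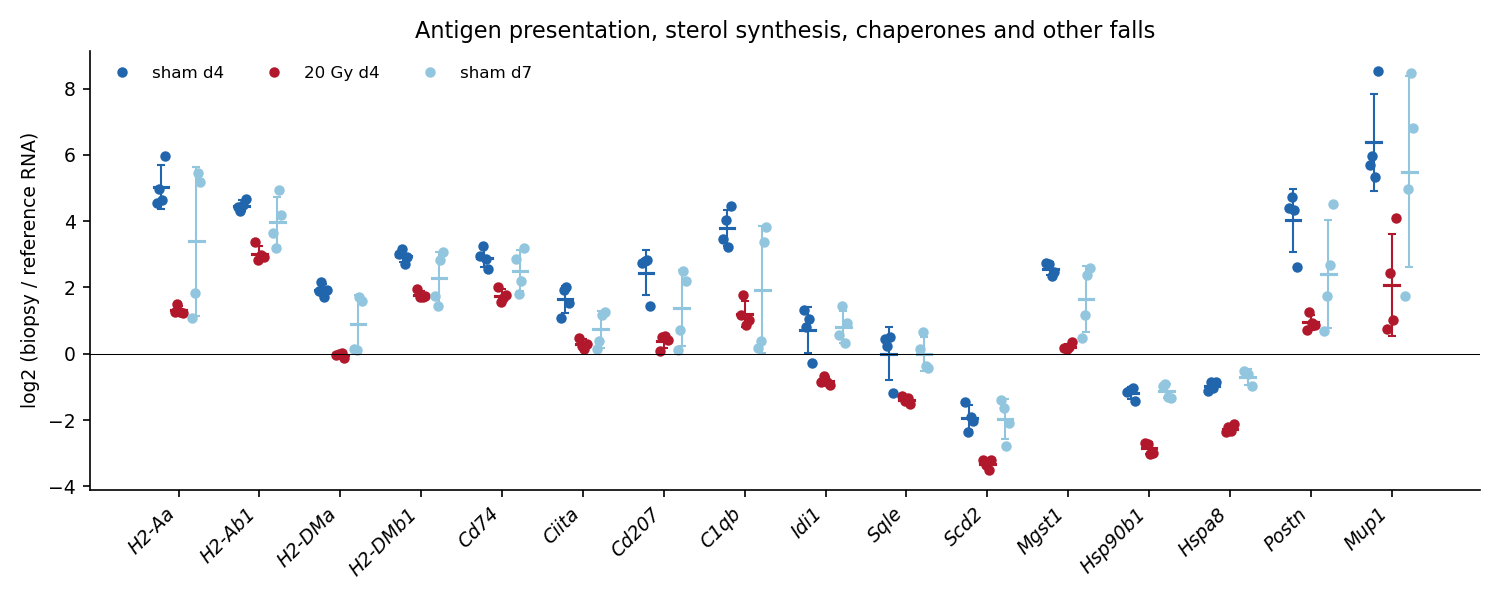
Log2 ratio of biopsy over reference on each array for genes that fell, in sham of d4, 20 Gy of d4 and sham of d7. Points are arrays, and bars give the mean and SD of a group. H2-Aa falls from 4.55 to 5.97 in sham of d4 to 1.23 to 1.51 after 20 Gy, and sham of d7 spans 1.09 to 5.46; Idi1 of the 20 Gy arrays (-0.94 to -0.67) lies below both sham groups.

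Idi1 and Sqle, enzymes of the mevalonate and sterol pathway, fell against sham of d4 and were lower against sham of d7. Idi1, the isopentenyl diphosphate isomerase, had 1.31, 0.81, 1.05 and -0.28 in sham and -0.85, -0.67, -0.84 and -0.94 after 20 Gy, without overlap. It fell by 1.55 ± 0.28 (adjusted p = 2.46e-05), and by 1.64 against sham of d7, 1.45 in Cy5 alone and 1.88 in the deposited values; its other probe was at 0.21. Sqle, the squalene epoxidase, fell by 1.39 ± 0.29 (adjusted p = 0.000189), by the same 1.39 against sham of d7, and was at -0.95 in the deposited values. Hmgcs1, which makes HMG-CoA, was at -0.82 ± 0.26 and called lower against sham of d7 and in the deposited values (-1.13 and -1.07), with 0.04 on its other probe, and Cyp51, the sterol demethylase, was at -0.60.

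Of 33 tested genes of the sebaceous gland and lipid synthesis, 6 fell and 3 rose, with a median of -0.6, where 7.17% of all genes fell and 6.05% rose. In the deposited values 13 were lower and 1 higher (median -0.78), with 3.39% and 1.05% over all genes. The fatty acid desaturase gene Scd2 fell by 1.39 ± 0.3 (adjusted p = 0.00038) and by 1.35 against sham of d7, and the microsomal glutathione transferase gene Mgst1 went from 2.35 to 2.75 in sham to 0.14 to 0.34, by 2.35 ± 0.36 (adjusted p = 8.37e-07). Fasn, the fatty acid synthase, fell by 1.4 ± 0.37 (adjusted p = 0.00493, without a value for sham mouse M002) and by 2.3 in the deposited values, but was at -0.37 against sham of d7. Insig1, which holds back sterol synthesis, rose by 1.67 ± 0.35 (adjusted p = 0.000191), with -0.78 in the deposited values and 0.66 on its other probe. Scd3, Fa2h and Cidea, genes of sebaceous lipid, were at 0.30, 0.54 and 0.82 in the scanner values but were called lower, at -2.26, -4.05 and -3.25, in the deposited ones.

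Several chaperones fell in the scanner values and lay near 0 in the deposited ones. Of 26 tested genes of the heat shock and unfolded protein response, 6 fell and 1 rose (median -0.07), where 7.17% of all genes fell and 6.05% rose. Against sham of d7 5 were lower (1.79% of all genes). In the deposited values 4 were lower and 1 higher (3.39% and 1.05% of all genes). Of those 4, 2, the stress-inducible Hspa1b and Atf3, were also among the falls, though the other probe of Hspa1b was called higher in the scanner values (1.37). Hsp90b1, the Hsp90 of the endoplasmic reticulum, went from -1.44 to -1.04 in sham to -3.01 to -2.68, by 1.68 ± 0.23 (adjusted p = 6.49e-08), and Hspa8, the constitutive Hsp70, by 1.29 ± 0.22 (adjusted p = 8.44e-06). Both were lower against sham of d7 (-1.73 and -1.56), but in the deposited values they were at -0.10 and 0.09, and their other probes were at -0.05 and 0.60. Xbp1 and Hspd1 fell by 1.27 and 1.0, with -1.1 and -1.28 against sham of d7. Hspa5, the main chaperone of the endoplasmic reticulum, was at -0.84 ± 0.31 and called lower against sham of d7 (-1.35) and with the Feature Extraction log ratio (-1.27). Pdia6, a disulfide isomerase of the same compartment, and the membrane protein gene Tmem45a were, with Idi1 and Mup1, the 4 genes lower under all 6 settings; Pdia6 fell by 1.23 ± 0.21 (adjusted p = 7.75e-06) and Tmem45a by 2.10 ± 0.37 (adjusted p = 1.64e-05), with -1.11 and -1.10 in the deposited values. These 2 are named because their values were seen.

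Some epidermal genes, Krt5, Krt14 and Lor among them, went opposite ways in the loess values of the scanner files and in the deposited values, and the Cy5 channel of the same scanner files gave values near or below 0 for these 3. Krt5 had 4.35, 4.24, 4.59 and 4.02 in sham and 7.44, 7.59, 7.52 and 6.97 after 20 Gy in the scanner values, a rise of 3.08 ± 0.24 (adjusted p = 1.85e-15) that held against sham of d7 (2.68). Its deposited values were 4.33, 4.33, 4.89 and 4.84 in sham and 3.29, 3.26, 3.35 and 2.86 after 20 Gy, a fall of 1.40, and the Cy5 channel alone gave -0.04. Both sources thus kept the groups apart, in opposite order. Krt14, its partner keratin, rose by 1.21 ± 0.3 and was at -1.28 in Cy5 alone and -1.18 in the deposited values. Lor, the main protein of the cornified envelope, had 6.71, 6.4, 7.0 and 7.59 in sham and 8.21, 8.86, 8.85 and 8.33 after 20 Gy, a rise of 1.64 ± 0.45 (adjusted p = 0.00482) that was -0.65 in Cy5 alone, -0.24 with plain median centring and -1.59 in the deposited values. Over all genes 6.05% rose and 7.17% fell, against 6.89% and 7.86% without sham mouse M002 and 1.05% and 3.39% in the deposited values. Of 24 tested cornified envelope genes 5 rose and 2 fell, with a median of 0.29, against 3 and 1 without sham mouse M002 (median 0.21) and none and 6 in the deposited values (median -0.65). Of 12 basal epidermis genes 3 rose and 3 fell (median -0.22), against 3 and 6 without sham mouse M002 (median -0.67) and none and 7 in the deposited values (median -1.27). Of 21 differentiated epidermis genes 2 rose and 4 fell, against none and 11 (medians -0.39 and -1.17). Trp63, the master factor of stratified epithelium, was lower in both, by 2.5 ± 0.95 (adjusted p = 0.0368) and 1.39, but its other probe was at 0.35 and the call was lost on leaving out any 1 of the 8 arrays except that of sham mouse M002 (-2.27 to -2.63). Dsg1a, an adhesion protein of the upper epidermis, fell by 3.6 ± 1.11 (adjusted p = 0.0107) and by 1.98 in the deposited values.

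Fibrillar collagen differed between the sources even more. Col1a1 had 4.35, 4.43, 4.59 and 2.64 in sham and 4.81, 4.23, 3.81 and 4.16 after 20 Gy, with overlap and a difference of 0.25 ± 0.59 (adjusted p = 0.778), and its other probes were at 1.18 and 4.8. Its deposited values were 3.07 to 3.35 in sham and -1.85 to -0.86 after 20 Gy, a difference of -4.54 (adjusted p = 8.05e-19). Col3a1, of type III collagen, was at -1.25 ± 0.59 (adjusted p = 0.0975) with 4.88 on its other probe, and at -4.73 in the deposited values. At d7 the scanner values of both were lower, by -4.71 and -5.42 against sham of d7. Of the 18 tested genes that the study listed under GP6 signaling and intrinsic prothrombin activation, a list it chose on these samples, 2 fell in the scanner values of d4 (Col16a1 and Klk8, by 1.17 and 2.53, the other probe of Col16a1 being called higher at 1.49) and none rose, with a median of -0.35, and 14 were lower in the deposited values (median -1.47). Over all genes 7.17% fell in the scanner values and 3.39% were lower in the deposited ones. Serpinh1, the chaperone of procollagen, fell by 1.8 ± 0.56 (adjusted p = 0.0107) and by 2.04 in the deposited values. Postn, a matrix protein of wound healing, had 4.4, 4.74, 4.34 and 2.63 in sham and 0.73, 1.27, 0.93 and 0.86 after 20 Gy, a fall of 3.08 ± 0.7 (adjusted p = 0.000564) that was -2.45 in the deposited values and -1.45, without a call, against sham of d7.

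Some endothelial markers fell against sham of d4, among them Cdh5 and Cldn5. Of 21 tested 9 fell, none rose and 12 were not called, with a median of -1.3, where 7.17% of all genes fell and 6.05% rose. Of the 9, 3 were not well above background on any 20 Gy array. Cdh5 (VE-cadherin), of the endothelial junction, went from 3.18 to 3.9 in sham to 0.16 to 0.5, by 3.21 ± 0.77 (adjusted p = 0.00111), with -1.26 on its other probe, and Cldn5, of the tight junction, fell by 3.13 ± 0.86 (adjusted p = 0.00414). The transcription factor gene Sox18 fell (limma adjusted p = 0.00106), with no 20 Gy array well above background. Its bound from normalized single channels was a 4.01-fold fall. It was at -1.14 in Cy5 alone and, without a call, at -0.55 against sham of d7 and -0.68 in the deposited values. The bound is thus no floor for other settings. Against sham of d7 none was called in limma (1 of 21 at an unadjusted p under 0.05), with a median of -0.08. The pan-endothelial gene Pecam1 was at -0.02 against sham of d4 and 0.37 against sham of d7. In the deposited values 2 were lower and 1 higher (3.39% and 1.05% over all genes), and Cldn5 was at -0.06. Of 13 erythroid genes 3 fell and none rose in each source, but without sham mouse M002 only 1 was called lower in the scanner values, where 7.86% of all genes were. Among the 3, the globin gene Hba-a1 fell by 1.96 ± 0.72 (adjusted p = 0.0341, no value for sham mouse M002) and by 2.1 in the deposited values. Its call was lost without sham mouse M001, M004 or M005 or without M021, M022 or M024 (-1.89 to -2.0). Of 16 platelet markers none passed in limma (7 of 16 at an unadjusted p under 0.05).

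Of 21 adipocyte genes 4 fell and 1 rose (median -0.95), where 7.17% of all genes fell and 6.05% rose. Without sham mouse M002 2 were lower and 2 higher (median -0.57), with 7.86% and 6.89% over all genes. The lipid droplet gene Plin1 fell by 2.71 ± 1.09 (adjusted p = 0.0495) and missed the test without sham mouse M001, M002 or M004 or without M021, M022 or M023 (-2.07 to -2.91), and the lipogenic gene Thrsp fell by 2.79 ± 0.8 (adjusted p = 0.00641). Thrsp was at -1.18 against sham of d7 and -1.06 in the deposited values. Of 30 skeletal muscle genes 4 rose and 3 fell (median -0.41), where 6.05% of all genes rose and 7.17% fell. Without sham mouse M002 5 were higher and 1 lower (median 0), with 6.89% and 7.86% over all genes. The deposited values gave none higher and 11 lower (1.05% and 3.39% over all genes). The sham arrays of d7 gave 6 higher and none lower (3.69% and 1.79%). The fast troponin gene Tnni2 and the titin cap gene Tcap rose by 2.49 and 2.35, with -0.48 and 0.33 in Cy5 alone and -0.89 and -0.94 in the deposited values, and the calcium store protein gene Casq1 fell by 3.6 ± 1.05 (adjusted p = 0.00717), and by 2.08 there.

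The genes with the largest falls, picked by size, included some of secreted, metabolic and muscle proteins. Whether such genes fell as groups was not tested. Mstn (myostatin) had 4.98, 4.12, 4.32 and 7.16 in sham and 0.04 to 0.31 after 20 Gy, by -4.92 ± 1.31 (adjusted p = 0.00316), but was at -0.92 against sham of d7. Mup1, a major urinary protein that binds pheromones, had 5.69, 5.97, 5.32 and 8.54 in sham and 0.75, 2.44, 1.02 and 4.09 after 20 Gy. It fell by 4.31 ± 1.18 (adjusted p = 0.00424), and it was -3.42 against sham of d7, -3.99 in the deposited values and -4.88 at d7. Its near-identical gene family may share this signal. Ppp1r3c, which directs a phosphatase to glycogen, and Xirp2, of striated muscle, fell by 4.33 ± 1.21 and 4.13 ± 1.18, with other probes from -1.1 for the first and from -3.66 to -0.81 for the second. The carboxylesterase gene Ces1d (-4.07 ± 1.0), Bbox1, the last enzyme of carnitine synthesis (-3.9 ± 1.0), and the protease inhibitor gene Serpina3b (-3.89 ± 1.08) were also lower in the deposited values (-1.59, -1.68 and -2.22). Trf (transferrin), Pdzd2, Lipm and Lratd1 fell by 3.39, 3.48, 3.19 and 3.18 and were lower in the deposited values as well.

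Many cell division genes rose against sham of d4. Of 34 mitosis genes 18 rose and none fell, with a median of 1.16, and 8 of the 18, with Bub1 and Ccnb1, were not well above background on any 20 Gy array, so that no fold is given for these. With the Feature Extraction log ratio 5 were higher and 4 lower (median 0.3), and in Cy5 alone 3 were higher (median 0.04). Against sham of d7 none was higher and 1 was lower, with a median of -0.1, and none passed in the deposited values (15 of 34 at an unadjusted p under 0.05). Of 30 DNA replication genes 14 rose and none fell. Of the 14, Mcm2, Cdc6 and Cdc45 were well above background on no 20 Gy array but on 3 or 4 sham arrays. Mcm2 and Cdc45 were at -1.01 and -0.99 with the Feature Extraction log ratio. In Cy5 alone Mcm2, Cdc6 and Cdc45 were at -0.32, -0.06 and -0.16. Over all 30, 2 were higher and 3 lower with sham of d7 (3.69% and 1.79% over all genes), 6 and 3 with the Feature Extraction log ratio (median 0.07) and 2 and none in Cy5 alone (median -0.04). Among those higher with sham of d7 was the helicase subunit gene Mcm5 (1.79 ± 0.28, adjusted p = 1.34e-06, with 1.07 against sham of d7 and -0.23 with plain median centring). Pcna, the sliding clamp, was at -0.77 ± 0.18 and Mki67 at -0.18, with 1.02, not called, on the other probe of Mki67, and both genes were lower against sham of d7 (-1.59 and -1.47). Of 23 genes of double-strand break repair 6 rose and none fell (median 0.63), 5 of the 6 well above background on no 20 Gy array, while with the Feature Extraction log ratio none was higher and 10 were lower (median -0.67). None was called against sham of d7 (2 at an unadjusted p under 0.05) or in the deposited values (11 at that level). Of 32 interferon response genes 10 rose and none fell, with Oasl1, Zbp1 and Isg15 at 1.71, 1.53 and 1.34; against sham of d7 only Ddx58 was called (1.07), in Cy5 alone 1 was higher, and in the deposited values none was higher and Ifi27l2a was lower (-1.38).

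**Figure D5:**
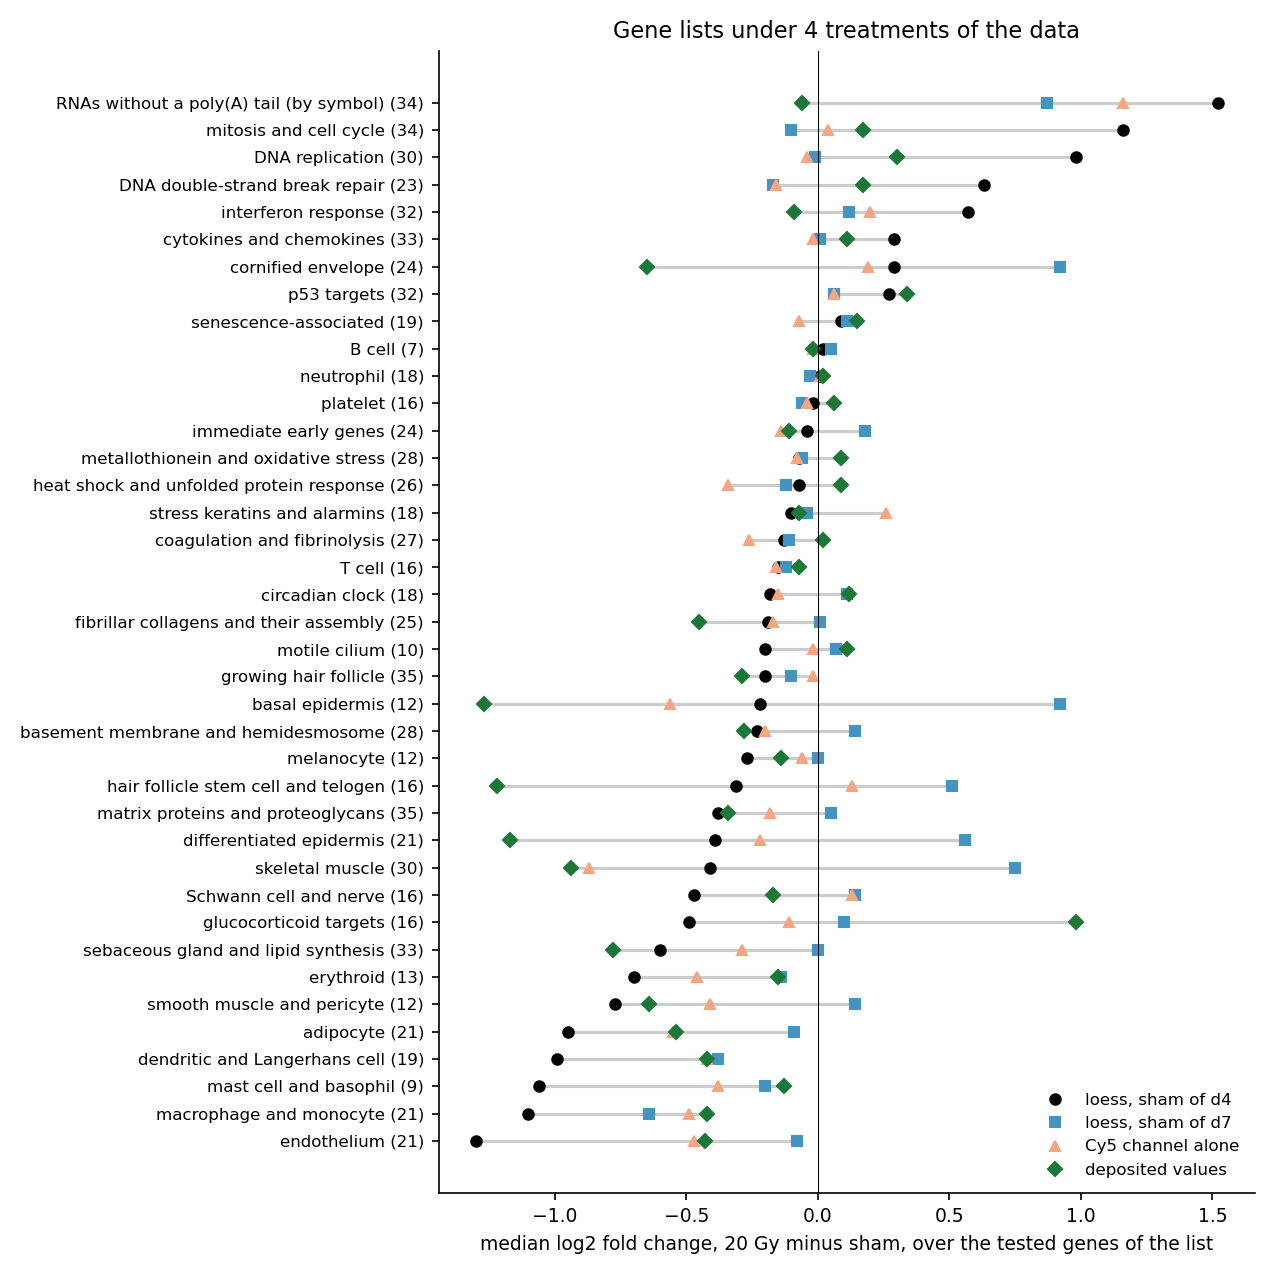
Median log2 fold change of 20 Gy at d4 over the tested members of each gene list, against sham of d4 and against sham of d7 (loess), in Cy5 alone and in the deposited values. Each row is a list and each symbol a setting. RNAs without a poly(A) tail (1.52) and mitosis genes (1.16) have the highest medians against sham of d4 and endothelium (-1.3) a low one, while the collagens and epidermal lists lie lower in the deposited values than in the scanner values.

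Other doses and time points set the d4 change in context. Against 6 Gy at d4, 1238 of 30293 probes were higher (4.09%) and 396 lower (1.31%) after 20 Gy, while 6 Gy differed from sham of d4 on 11 higher (0.0363%) and 1 lower (0.0033%) probe, on 236 and 475 against the 3 sham arrays of the first scanner, and on 191 and 19 in the deposited values; the split against 6 Gy was 75.8% higher with loess, 55.8% without background correction, 57.9% in Cy5 alone, 47.8% with the Feature Extraction log ratio, 0.893% with plain median centring and 22.5% in the deposited values, so its direction depends on the scaling. Of the 4 arrays of 6 Gy, 3 were read on the other scanner. At h2, 20 Gy gave 1754 probes higher (5.79%) and 1008 lower (3.33%), from mice M021 to M024 on another slide of their own (slide 7). Here too the direction depended on the scaling, with 83 higher and 11081 lower by plain median centring and 5194 and 7467 by the Feature Extraction log ratio. The difference between the 20 Gy effects at d4 and h2 was an SDTG on 2 probes (0.0066%), both higher at d4 (803 probes at an unadjusted p under 0.05), neither of which has a gene name here. Sesn2 was 1.57 higher at h2 and 0.14 at d7, Cdkn1a 0.59 and 0.80, and Pik3ip1 1.62 and 1.49, each against sham of the same time point. Of the 32 p53 targets, 2 were higher and 2 lower at h2, near the share over all genes (5.8% and 4.91%), and 3 and 1 at d7 (1.26% and 0.953%). Slpi was 3.2 higher at h2 and 1.47 at d7, and Idi1 changed by -1.31 and -1.39. Sesn1, at -1.33 at d4, was at -0.84 at h2 and 2.27 at d7, where the scanner values were higher too. None of these genes passed the test of a different 20 Gy effect between d4 and h2, which does not show that the effects were alike.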

How the data were processed

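Agilent whole-genome mouse arrays carried biopsy RNA in Cy5 and reference RNA in Cy3. Per the file headers, the authors deposited for each of 45018 spots the median pixel intensity and local background of both channels, not normalized. The deposited log10 ratio of Cy5 over Cy3 came from Feature Extraction (10.10.1.1 and 11.0.1.1), which had subtracted background and normalized the dyes. Normalized log2 values deposited by the authors (41174 of 41267 entries matched a probe) track biopsy over reference, while their centring and batch steps are not given in the sources used here.

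From the intensities, normexp (offset 50) and loess within each array were run in limma 3.58.1 (R 4.3.3, statmod 1.5.0; data.table, version 1.17.8, for reading), without control and outlier spots (0.704% of spot values). A probe was tested if 50% or more of the arrays of any 1 group had it well above background in Cy5 (30293 probes). All 82 arrays shared 1 fit with a mean for each of 23 groups (lmFit, eBayes), without a term for scanner, slide or mouse. The p-values thus measure the spread between arrays of a group, which mixes differences of mouse, slide and, in some groups, scanner. They cannot tell a group apart from a slide that holds all its arrays. The tested probe of highest mean intensity stood for a gene, and 27572 probes (67%) had a symbol through RefSeq (GRCm38.p6). Bounds for dim probes rest on normalized single channels and are open to dye bias, since dyes were not swapped. No probe was called saturated in Cy5 on the 8 arrays. Precision is limited by how many arrays there were. The methods name 5 animals per group, and 4 arrays of each were analysed. The mouse was added as a random replicate block in an alternative, since mice were biopsied repeatedly.

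Named were the 10 largest rises and falls without overlap, the 15 of each called under 4 settings, up to 4 called members of each gene list and others needed to describe it, the study's table genes, and genes said to be named after their values were seen. The members and lists were chosen with earlier results of these data known. The fit was checked on simulated data. Some genes that the rule would name are not reported here.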

Additional observations from a re-analysis of the deposited data

Results flagged for a closer look

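Each group of 4 arrays at d4 was examined for 1 array far from the others, by the gap to its nearest neighbor over the range of the group, in 204 groups of values, and 27 passed the critical value, where chance would give about 1 in 20. Most concerned sham mouse M002, read on the other scanner. It was high in the percent of probes above background in Cy3 (gap over range 0.926) and in spike-in Cy3 signal (0.942). It was also high for the RNAs Rmrp (0.889), Snord33 (0.879) and Rn28s1 (0.861), for the p53 targets Phlda3 (0.899), Bax (0.855) and Ccng1 (0.94), for Ddit4 (0.928), and for Hhatl (0.963), Casq1 (0.853) and Ppp1r3c (0.85). It was low for Psrc1 (0.971) and Perp (0.906), for the collagen genes Col1a1 (0.878) and Col3a1 (0.89), for Hspa5 (0.866), Sqle (0.837), Cd207 (0.938), Trp63 (0.84) and Prom2 (0.987).

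After 20 Gy, mouse M024 was high for the muscle genes Casq1 (0.876), Xirp2 (0.911) and Hhatl (0.842), mouse M022 for H2-Aa (0.893) and Hspa5 (0.839), and mouse M021 for H2-DMb1 (0.853).

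The 20 Gy effect differed between d4 and h2 on 2 probes without a gene name here. The difference was 1.19 ± 0.21 (limma adjusted p = 0.00458) for the probe of AK021217, with means of 1.76 after 20 Gy and -0.33 in sham at d4, and of 0.62 and -0.29 at h2. It was 1.69 ± 0.28 (adjusted p = 0.00321) for the probe of W15861, with 1.45 and -0.17 at d4 and 0.08 and 0.16 at h2.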

How the results depend on the processing

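SDTG counts at d4 (1844 probes higher, 1548 lower) moved by over 1.5 times under these settings, higher and then lower where both moved. Plain median centring, which shifted the median of all probes by -0.41, gave 125 and 7775, the Feature Extraction log ratio (shift -0.2) 4757 and 6493, the deposited values 252 and 689, Cy5 alone 1161 and 849, sham of d7 1163 and 361, and the adjusted p alone 5052 and 4723. Lower probes fell to 757 with all 16 sham arrays, 754 with slide as a random block and 859 with sham of h2. Centring on the spike-ins, whose log2 ratio ran from -5.49 to 5.74 over all arrays, gave 0 and 0 in limma (257 at an unadjusted p under 0.05). Against 6 Gy (1634), counts were 3754 without background correction, 7504 with median centring, 10983 with the Feature Extraction log ratio and 0 on the spike-ins (266 unadjusted). For d4 minus h2 (2), they were 11, 0 (366 unadjusted) and 9 in the first of these 3 settings, 0 (43 unadjusted) in the deposited values, 19 in Cy5 alone, 0 (335 unadjusted) with the slide block, 1 for probes above background on all 8 arrays and 0 (0 unadjusted) on the spike-ins.

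Leaving out 1 array gave 1553 to 2136 higher, 1182 to 1768 lower, 1394 to 2117 against 6 Gy and 2 to 10 for d4 minus h2, where 10 came without 20 Gy mouse M022 of h2. With the mouse as a replicate block, the pairing of biopsies changed little, with 1828 and 1541, 1656 against 6 Gy and 3 for d4 minus h2, and all 84 called genes examined under alternatives kept their calls.

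Among the 94 genes examined under these alternatives, those reversed in sign with median centring were Bax (-0.73), Ccnb1 (-0.04), Ddit4 (-0.80), Dglucy (-0.53), Gadd45b (-0.76), Krt18 (-0.12), Lor (-0.24), Mcm5 (-0.23), Mt1 (-0.70), Phlda3 (-0.59), Pik3ip1 (-0.01), Pmaip1 (-0.20), Psrc1 (-0.53), Pvr (-0.61) and Slc43a3 (-0.56). With the Feature Extraction log ratio they were Ccnb1 (-0.43), Ckap2 (-0.35) and H2-Ab1 (0.60), and in Cy5 alone Ccnb1 (-0.20), Krt5 (-0.04) and Lor (-0.65). In the deposited values they were Grn (-0.40), Hspa8 (0.09), Insig1 (-0.78), Krt5 (-1.40), Lars2 (-0.65), Lor (-1.59), Pigt (-0.89), Rgs3 (-0.22), Rn28s1 (-0.67) and Sesn1 (1.16), and with sham of d7 Ccnb1 (-0.30) and Il1rl1 (-0.01). Of the 84 genes, 31 kept their call with sham of d7, 45 in the deposited values, 57 with the slide block and 83 with the scanner as a block. Other genes named above were examined in fewer settings. Among them C1qa, Folr2, Mcm2 and Cdc45 changed sign with the Feature Extraction log ratio, and Krt14, Tnni2, Mcm2, Cdc6 and Cdc45 in Cy5 alone. Isg15 (-0.23) and Cdc45 (-0.09) did so against sham of d7, and Krt14, Tnni2, Tcap, Errfi1, Sgk1 (0.18), Tsc22d3 (0.61), Hspd1 (0.20), Xbp1 (0.12) and Ddx58 (-0.24) in the deposited values. The cause was not tested. Dim probes limit what 20 Gy could show, since under 50% of the probes of those arrays were above background.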

Other observations

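Glucocorticoid-responsive genes differed between the sources. Of 16 tested, Ddit4 rose, as given above, and 4 fell at d4 in the scanner values, Errfi1, Sgk1, Tsc22d3 (GILZ, a leucine zipper protein) and the sulfotransferase gene Sult1a1, by 1.34, 1.54, 1.86 (other probe -0.79) and 2.79, with a median of -0.49, where 6.05% of all genes rose and 7.17% fell. In the deposited values 8 were higher and none lower (median 0.98), with 1.05% and 3.39% over all genes. Among the 8 were Mt2 (2.27), Cebpd (2.21), Pdk4 (1.66) and Fkbp5 (1.4), which were at 0.36, -0.05, -0.78 and -0.08 in the scanner values, and Errfi1 changed sides (1.32). At d7 7 were higher and none lower in the scanner values (1.26% and 0.953% over all genes).

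Metallothionein 1 (Mt1), which binds zinc and copper, lay at -0.54, -0.58, -0.35 and -1.31 in sham and 0.77, 0.95, 0.57 and 0.91 after 20 Gy, without overlap. It rose by 1.49 ± 0.56 (limma adjusted p = 0.0348), and by 2.8 in the deposited values, and missed the test without sham mouse M001, M002 or M004 or without M021, M022 or M024 (1.29 to 1.54), and with plain median centring it was at -0.70. The epidermal metallothionein gene Mt4 was lower in both sources (-2.73 and -2.85). S100a9, the neutrophil calprotectin subunit, was at 0.99 ± 1.1 (adjusted p = 0.518), with 1.86 to 2.74 in sham and 2.54 to 3.86 after 20 Gy, and was called higher in the deposited values (3.49). Among 33 cytokines and chemokines 6 rose, with Ccl3 and Ccl5 at 2.42 and 1.9 (other probe of Ccl5 0.98, not called), and Cxcl16 fell by 2.03 (other probe -0.65); the probes of Cxcl1 and Ccl4, also called higher, were well above background on only 1 array of each group, and no fold is given. Against sham of d7 2 were higher, Ccl5 (1.26) and Tgfb2 (1.41). Over all genes 6.05% rose and 7.17% fell against sham of d4, and 3.69% were higher against sham of d7.

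Of 18 circadian clock genes Per3 and Bhlhe41 rose by 1.11 and 1.04 (0.15 on the other probe of Bhlhe41) and Arntl (BMAL1) fell by 1.47, where 6.05% of all genes rose and 7.17% fell, and in the deposited values these 3 were at 0.09, 0.05 and -0.40. Of 28 metallothionein and oxidative stress genes 2 rose and 6 fell, against 1 and 4 without sham mouse M002, among the falls the catalase gene Cat (-2.29) and the peroxiredoxin gene Prdx1 (-2.73), which were at -0.56 and -0.02 in the deposited values.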
